A study of Homo sapiens with 8 samples.

Results

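KBM7 cells whose JAK2 gene carries a gene-trap insertion were exposed to IFN-gamma, and the RNA that still changed in them is described here. KBM7 is a human chronic myeloid leukaemia line with a near-haploid genome, in which one insertion can disable a gene. The measured quantity was the difference in log2 intensity between 1 array of JAK2 mutant cells given IFN-gamma and 1 array of unstimulated JAK2 mutant cells, for every probe set that reached a log2 level of 6 on at least 1 of the 8 arrays. Of 49395 probe sets on the array, 26938 met that rule. Among them, 62 were control probe sets of the array and were set aside, which left 26876, of which 24760 belonged to 1 gene, 966 to several genes and 1150 to no gene named in the annotation. The single-gene probe sets stood for 11529 genes.

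The groups were JAK2 mutant cells with IFN-gamma at 100 ng/ml for 6 hours, JAK2 mutant cells left unstimulated, wild-type (WT) cells with the same IFN-gamma treatment, and unstimulated WT cells. Unstimulated WT cells had 2 arrays, and the labels assign replicate 1 to the IFN-gamma experiment. The remaining arrays held TNFRSF1A gene-trap cells given TNF-alpha (10 ng/ml) over 6 hours, the same cells unstimulated, WT cells with TNF-alpha, and unstimulated WT replicate 2. Every condition other than unstimulated WT had 1 array, so no difference has a replicate check, no p-value is given, and precision is limited by how few arrays there are. Nothing in the labels says whether the mutant cells are 1 clone or several, so an effect of the disabled gene and a trait of the cells used cannot be told apart.

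IFN-gamma binds a receptor whose chains carry the kinases JAK1 and JAK2. The active kinases phosphorylate a STAT factor that moves to the nucleus and binds GAS elements, and the transcription factors induced first, such as IRF1, then act on ISRE elements of further genes. In leukocytes this programme raises guanylate-binding proteins (GBPs), antigen presentation and antiviral effectors.

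The JAK2 probe sets were checked first. On the brightest of 3, the log2 level was 5.32 in JAK2 mutant cells with IFN-gamma and 5.08 in unstimulated JAK2 mutant cells, against 6.81 in WT cells with IFN-gamma and 6.28 in unstimulated WT cells (replicate 1). The other JAK2 probe sets read 3.61 and 3.92 in the mutant with IFN-gamma and 3.90 and 4.33 in the unstimulated mutant. All 3 probe sets lay, on both mutant arrays, below the upper quartile of the array's background probe sets, which was 5.76 on the IFN-gamma array and 5.86 on the unstimulated array. Levels below these values are called the background range here, and they bound a level rather than measure it.

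Cells without detectable JAK2 signal still raised a small set of interferon-stimulated genes. The named ones were the transcription factor IRF1, the MHC class I transactivator NLRC5, the antiviral protein IFIT2, members of the GBP family, the lipid-binding APOL3 and the cytidine deaminase APOBEC3G. The sizes were below those in WT cells, and each came from 1 pair of arrays. Averaged over all of each gene's probe sets, also those that never reached a level of 6, IRF1, NLRC5, IFIT2 and APOBEC3G rose by less than 1.5-fold. The 3 compared IRF1 probe sets rose by 0.51 to 0.76 on the log2 scale. Each GBP probe set that passed 1.5-fold had a level in the background range. RNA was taken from whole cultures, so a rise in every cell and a larger rise in some cells cannot be told apart. Only 3 of the compared probe sets changed upward by 2-fold or more, and the annotation names no gene for any of them. Among the control probe sets set aside, 3 also rose past 2-fold, by 1.16 to 1.33 on the log2 scale.

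At 1.5-fold, a log2 difference of 0.585, 52 probe sets were raised in the mutant, 0.193% of those compared, and 60 were lowered, 0.223%. In WT cells the same threshold gave 385 raised (1.43%) and 31 lowered (0.115%). The TNFRSF1A mutant with TNF-alpha, another pair of arrays from cells that lack the receptor concerned, gave 10 raised (0.0372%) and 15 lowered (0.0558%). The 2 unstimulated WT arrays, which come from different experiments, differed more than any of the stimulated pairs just given. In replicate 2, 1583 probe sets were higher (5.89%) and 1729 were lower (6.43%). The split of the mutant's calls depended on scaling, with 84 raised and 38 lowered after loess correction and 70 raised and 40 lowered after a further quantile normalization. Taken gene by gene on the brightest probe set, 19 genes were raised (0.165%) and 25 were lowered (0.217%).

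The arrays were alike in overall signal, with median intensities of 63.9 to 66.9. The actin 3′ to 5′ signal ratio, a sign of RNA integrity and labelling, was 6.47 in the mutant with IFN-gamma and 5.74 in the unstimulated mutant, against 4.81 and 4.41 on the corresponding WT arrays. The GAPDH ratio was 1.25 and 1.27 in the mutant, against 1.20 and 1.21 in WT. The part of these ratios in the mutant's differences was not tested.

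Before the values, the stretches of DNA just upstream of the response genes are shown for IRF1 and GBP3, the markers of this response that the promoter table holds. NLRC5 and IFIT2 are the other markers. Both windows cover the 250 bases before the annotated start and come from RefSeq, build GRCh38.p14. Capitals mark the GAS motif, searched as TTCNNNGAA, which reads the same on both strands.
IRF1, chr5:132490774-132491023, minus strand: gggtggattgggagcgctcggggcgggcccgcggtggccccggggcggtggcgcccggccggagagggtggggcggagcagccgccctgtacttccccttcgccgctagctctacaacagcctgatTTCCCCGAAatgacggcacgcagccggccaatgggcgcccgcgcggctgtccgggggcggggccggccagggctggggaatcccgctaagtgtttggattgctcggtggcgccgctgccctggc
GBP3, chr1:89022867-89023116, minus strand: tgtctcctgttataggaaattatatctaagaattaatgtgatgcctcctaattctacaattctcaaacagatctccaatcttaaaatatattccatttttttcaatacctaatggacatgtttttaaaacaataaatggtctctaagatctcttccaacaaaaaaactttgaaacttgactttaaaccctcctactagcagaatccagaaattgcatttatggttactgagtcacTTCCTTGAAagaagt

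The IRF1 motif, TTCCCCGAA, spans positions -124 to -116 from the start, and the GBP3 motif, TTCCTTGAA, spans -15 to -7. These are matches of letters and were not measured as binding sites. ERG (4 annotated starts) and HLA-DPA1 (2 annotated starts), each with a probe set raised in the mutant, were searched too. Their windows held no GAS or ISRE motif and are not printed.

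IRF1, the transcription factor that amplifies the response, was raised on both of its brighter probe sets. The brightest read 9.11 in JAK2 mutant cells with IFN-gamma and 8.52 in unstimulated mutant cells, against 11.75 in WT cells with IFN-gamma, 8.88 in unstimulated WT replicate 1 and 9.02 in WT replicate 2. The mutant with IFN-gamma was above both unstimulated WT arrays by little and below stimulated WT by a wide margin. The log2 difference was 0.59 in the mutant and 2.87 in WT, and that in the mutant was 0.56 after loess and 0.55 after quantile scaling, both short of 1.5-fold. The second probe set read 7.90 and 7.14 in the mutant, with and without IFN-gamma, against 11.62 and 7.57 in WT, which gave differences of 0.76 and 4.05. One more IRF1 probe set differed by 0.51 in the mutant and 2.94 in WT. On the linear intensity scale the rise of the brightest IRF1 probe set in the mutant was 6.24% of the rise in WT.

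NLRC5, which drives transcription of MHC class I genes, showed the largest gene-level rise. Its level was 8.25 in the mutant with IFN-gamma and 7.37 in the unstimulated mutant, against 10.52 in WT with IFN-gamma and 7.63 in unstimulated WT (replicate 1). The difference was 0.87 in the mutant and 2.88 in WT, and the linear rise was 10.9% of that in WT. Unstimulated WT replicate 2 read 6.77, so the unstimulated mutant lay between the WT arrays. A dim second NLRC5 probe set, in the background range on both mutant arrays, differed by 0.24 in the mutant and by 1.79 in WT.

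IFIT2, a protein that binds viral RNA and slows translation, began lower in the mutant. It read 8.75 in the mutant with IFN-gamma and 8.10 in the unstimulated mutant, against 12.28 in WT with IFN-gamma, 9.63 in WT replicate 1 and 9.89 in WT replicate 2. The stimulated mutant therefore stayed below every WT array. The difference was 0.65 in the mutant and 2.64 in WT, and the dim second probe set gave 0.17 in the mutant and 2.49 in WT.

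The GBPs are large GTPases that coat intracellular pathogens and their vacuoles. All 5 compared members were above 0 in the mutant, with a median of 0.60 against 3.27 in WT, and 3 of the 5, GBP2, GBP3 and GBP4, were counted past 1.5-fold. Each of these 3 was in the background range on at least 1 mutant array, so none is measured as past 1.5-fold, and the median rests on such levels. GBP5 was the member whose main probe set exceeded background in both mutant states, at 7.68 with IFN-gamma and 7.15 without it, against 10.86 and 7.43 in WT; the difference of 0.53 in the mutant did not reach 1.5-fold, and that in WT was 3.43.

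A dimmer GBP5 probe set read 5.61 and 4.74 in the mutant, with and without IFN-gamma, against 9.62 and 5.59 in WT. Neither mutant value exceeded background, and no fold is given for that probe set. GBP2 was in the same position, at 5.53 and 4.89 on one probe set and 5.12 and 4.19 on the other in the mutant, against 8.63 and 5.68, and 8.39 and 4.90, in WT. GBP3 reached 5.96 with IFN-gamma, just above background, and was at 5.18 without it, against 9.43 and 6.16 in WT. Taking the background value as the unstimulated level leaves a rise of at least 0.10 for GBP3 and of at least 0.03 for GBP4, which read 5.89 and 5.29 in the mutant. GBP1 read 4.18 and 3.93, again background, although it rose by 3.73 in WT.

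APOL3 and APOBEC3G were the remaining named genes raised on both sides. APOL3 read 6.95 in the mutant with IFN-gamma and 6.31 without it, against 8.08 and 6.78 in WT, differences of 0.63 and 1.301. Its linear rise, 27.4% of that in WT, was the largest share among the genes raised 2-fold in WT and above background on the mutant arrays. The other APOL3 probe set differed by 0.085 in the mutant. APOBEC3G, which edits viral DNA, read 7.34 and 6.61 in the mutant against 8.51 and 7.61 in WT, differences of 0.72 and 0.90. A second APOBEC3G probe set differed by 0.15 in the mutant and 0.03 in WT.

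**Figure D1:**
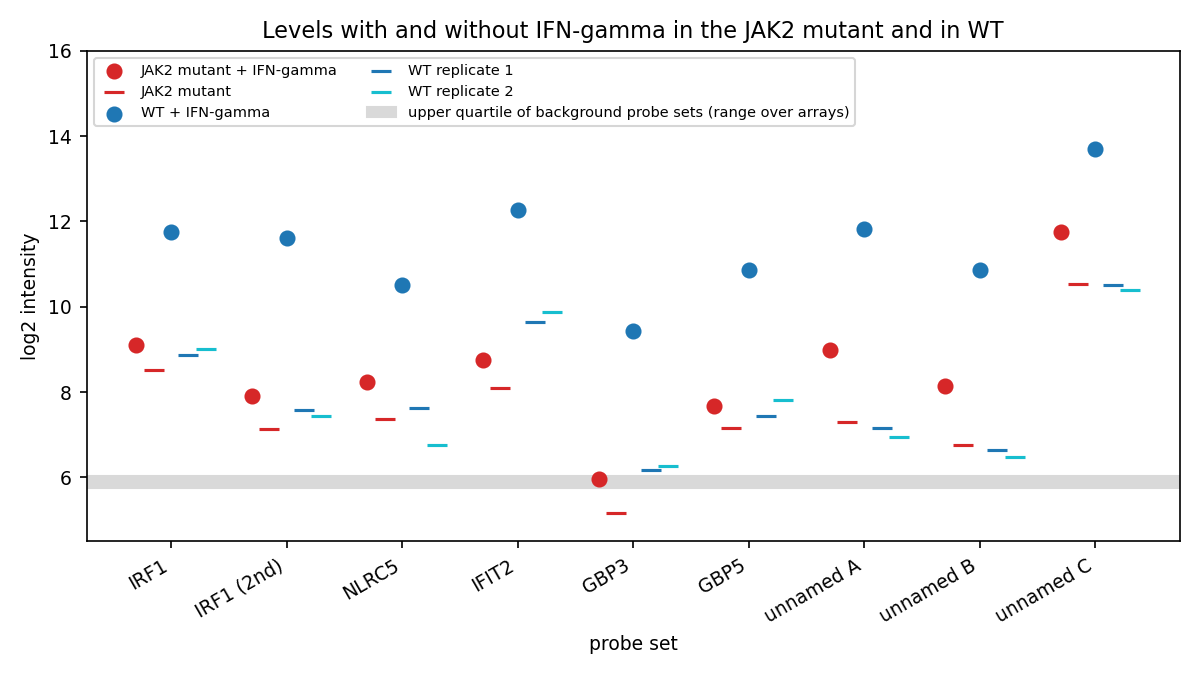
Log2 intensity of 9 probe sets on the JAK2 mutant arrays (red, with IFN-gamma as circles and unstimulated as bars) and the WT arrays (blue circles with IFN-gamma, bars unstimulated); the grey band is the range over the 8 arrays of the background upper quartile. Every red circle lies above its red bar and well below the blue circle, and GBP3 lies at or under the background band in the mutant.

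The 5 raised probe sets without a single gene included the largest rises among the compared probe sets. The first unnamed one read 8.99 in the mutant with IFN-gamma and 7.30 in the unstimulated mutant, against 11.82 in WT with IFN-gamma, 7.16 in WT replicate 1 and 6.95 in WT replicate 2. Its difference was 1.69, a 3.23-fold rise, against 4.66 in WT. The second read 8.14 and 6.77 in the mutant against 10.85 and 6.64 in WT, differences of 1.37 and 4.21.

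The third unnamed probe set was bright on every array. It read 11.75 in the mutant with IFN-gamma and 10.54 without it, against 13.69 and 10.51 in WT, differences of 1.21 and 3.18. All 3 began in the mutant no more than 0.14 above unstimulated WT replicate 1, and their linear rises were 10.1%, 9.91% and 16.5% of those in WT. In the TNFRSF1A mutant with TNF-alpha they differed by -0.07, -0.43 and -0.02 from the unstimulated cells.

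The remaining 2 were smaller. A probe set shared by 2 genes read 7.21 and 6.48 in the mutant against 9.84 and 7.52 in WT, differences of 0.74 and 2.32, with a linear rise 8.09% of that in WT. The last unnamed probe set read 8.51 with IFN-gamma and 7.90 without it in the mutant, against 8.03 and 7.97 in WT, a difference of 0.61 in the mutant and 0.06 in WT. Of the 5, it was the one not raised in WT.

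Of the 52 raised probe sets, 15 were also raised at least 1.5-fold in WT and 0 were lowered there. WT raised 1.43% and lowered 0.115% of all compared probe sets by that threshold. The mutant and WT pairs share no array. The 15 were 11 single-gene probe sets of 9 genes and 4 of the 5 just described, and their median difference in WT was 2.95. In 2 of those 9 genes, IRF1 and GBP2, 2 probe sets were called. For 7 of the 9 genes the array holds further compared probe sets that were not called themselves. All 9 of these were above 0 in the mutant. Their median was 0.24, which leaves out the called probe sets by definition.

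The other 37 raised probe sets had a median difference of 0.01 in WT. They represented 36 genes and 1 unnamed probe set, and 10 of them were in the background range with and without IFN-gamma, with 12 more crossing it. Over all compared probe sets, 2.95% were in the background range on the pair of mutant arrays. Of these 36 genes, 0 had 2 or more probe sets called. Their 85 further probe sets, all uncalled by definition, had a median of 0.06, with 56 above 0.

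ERG, an ETS family transcription factor of blood stem cells and endothelium, showed the largest of these rises. One ERG probe set read 7.32 in the mutant with IFN-gamma and 6.40 without it, against 6.25 and 6.56 in WT, differences of 0.92 and -0.31. Its 6 other compared probe sets differed by -0.05 to 0.21 in the mutant, and the brightest read 9.43 and 9.48. The rise was thus seen on 1 of 7 ERG probe sets.

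WASL, an activator of actin branching, read 6.94 with IFN-gamma and 6.09 without it in the mutant, a difference of 0.85, while its brighter probe set differed by -0.11. PDCL, a phosducin-like protein, differed by 0.74 on one probe set and 0.01 on the other. TBL1XR1, a subunit of the NCoR corepressor complex, differed by 0.74 on one probe set and by 0.13 to 0.22 on 3 others. In each case the probe set that rose was not the brightest of its gene.

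Dimmer rises had the same form. HLA-DPA1, an MHC class II chain, read 6.19 with IFN-gamma and 5.32 without it on one probe set, at least 0.33 above background, and its 3 other probe sets ran from -0.49 to 0.34. EYA3, a phosphatase and transcriptional coactivator, rose by at least 0.27, and the receptor phosphatase PTPRK by at least 0.56. CD9, CIB2, PDE3B and IRS1 lay in the background range on both mutant arrays, and GPALPP1 exceeded it by too little on the IFN-gamma array to give a bound above 0. MT1X, a zinc-binding metallothionein named after its value was seen, was bright: it read 9.71 in the mutant with IFN-gamma and 9.10 without it, against 8.17 and 8.26 in WT. Its other compared probe set differed by 0.02 in the mutant.

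IAH1 read 4.99 in the mutant with IFN-gamma and 4.26 without it, and TMEM263 read 5.32 and 4.62, all in the background range. Both are among 12 genes that were at least 16-fold lower in the unstimulated mutant than in unstimulated WT. With IFN-gamma these 12 genes stayed low: their intensity in the mutant was a median 1.91% of that in stimulated WT, between 0.509% and 6.16%. Without IFN-gamma the median was 1.92% of WT.

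**Figure D2:**
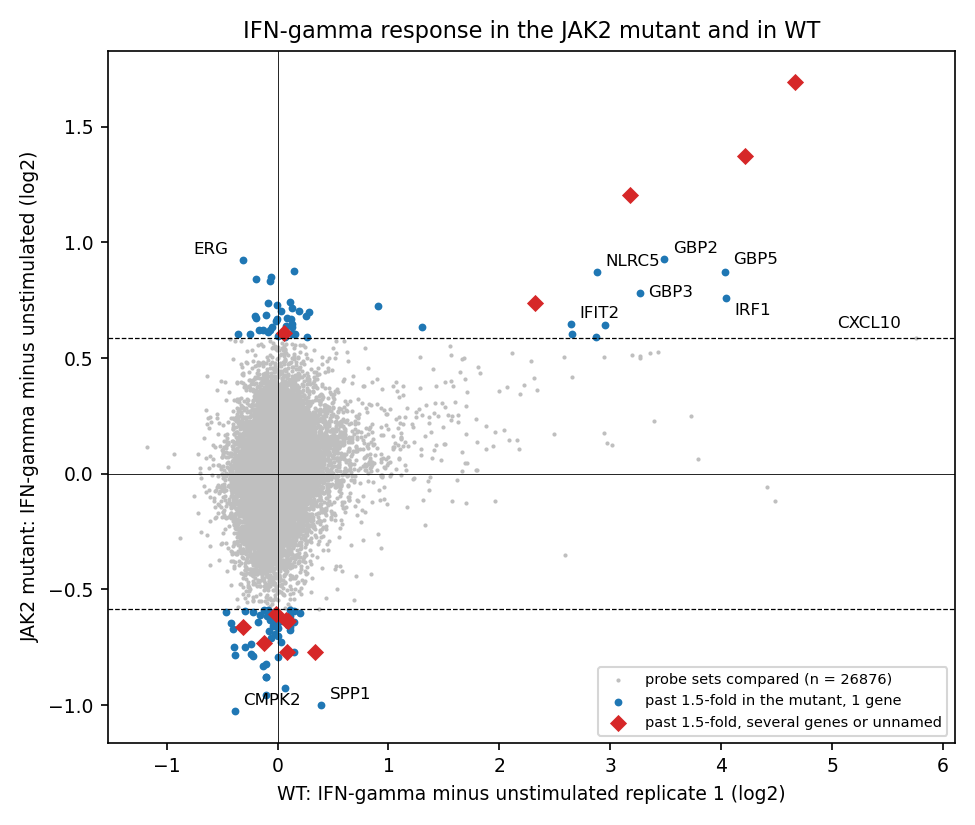
Each point is 1 of the 26876 compared probe sets, with the log2 difference between IFN-gamma and unstimulated cells in WT on the horizontal axis and in the JAK2 mutant on the vertical axis; dashed lines mark 1.5-fold in the mutant, blue points are past it with 1 gene and red diamonds are past it with several genes or none named. The raised points form a column at a WT difference near 0 and a scatter at WT differences of 0.90 to 4.66, whereas every lowered point lies between -0.47 and 0.39 in WT.

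The genes that IFN-gamma raised in WT were then followed in the mutant. In WT, 70 genes were raised 2-fold (0.607%) and 159 were raised 1.5-fold (1.38%). For the 70 genes the median difference in the mutant was 0.22, the quartiles were 0.11 and 0.38, and 63 of them lay above 0. With WT replicate 2 as the control that chose the genes, the median was 0.098, and for the 54 genes raised 2-fold against both WT arrays it was 0.22. Over all 11529 genes the median was 0.00 and 5808 lay above 0. Of the 70, 7 were raised 1.5-fold in the mutant and 0 were lowered. In the TNFRSF1A mutant with TNF-alpha the median of these 70 was -0.02, with 33 above 0. Over all 11529 genes that median was also -0.02, with 4758 above 0.

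The residual difference was larger where the WT response was larger. Its median was 0.07 for the 89 genes raised 1.5-fold to 2-fold in WT, 0.16 for the 54 raised 2-fold to 4-fold, 0.49 for the 11 raised 4-fold to 8-fold, and 0.53 for the 5 raised 8-fold or more. The 11354 genes within 1.5-fold in WT had a median of 0.00. Genes above background on both mutant arrays gave 0.17 for 44 genes raised 2-fold to 4-fold in WT and 0.45 for 8 raised 4-fold to 8-fold. Of the 5 raised 8-fold or more, GBP5 was the 1 measured on both mutant arrays. As a share of the linear rise in WT, the mutant's rise had a median of 6.08% over the 70 genes, with quartiles of 3.05% and 9.18%. The share was 4.60% at the median of the 4-fold to 8-fold genes and 3.71% at that of the 8-fold genes.

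CXCL10, a chemokine that attracts activated T cells, showed the largest WT response. It read 5.37 in the mutant with IFN-gamma and 4.79 without it, both background, against 11.27 and 5.51 in WT. By these values it was the probe set just outside the threshold for a rise, at 0.585, and ELL2, at 0.589, was the one just inside. ELL2 read 5.83 and 5.24, the second in the background range, so neither value measures a difference. CXCL11, which binds the same receptor, read 5.09 and 4.57 in the mutant against 8.26 and 4.91 in WT. PLAAT4, a phospholipase-type enzyme, read 4.01 and 3.88 in the mutant, in the background range, against 7.17 and 4.19 in WT.

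TAP1, the peptide transporter subunit, was bright enough to measure in every state. It read 10.19 in the mutant with IFN-gamma and 9.77 without it, against 12.60 and 9.95 in WT, differences of 0.42 and 2.65. TAP2, its partner subunit, read 8.70 and 8.71 in the mutant against 9.79 and 8.68 in WT, differences of -0.01 and 1.11. Other genes raised 2-fold in WT also stayed near 0 in the mutant while above background: ICAM1, an adhesion molecule, at -0.01, TRAFD1 at 0.00, and IRF7, an interferon regulatory factor, at -0.07. SOCS1, the feedback inhibitor of JAK kinases, differed by 0.11 in the mutant and 1.88 in WT. WARS1, a tryptophanyl-tRNA synthetase, differed by 0.15 and 2.16.

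Gene lists were read by role, on the probe set that stands for each gene. They were read against the 0.165% of all genes raised and 0.217% lowered in the mutant and the 1.38% raised in WT. Among 9 compared regulators of the IFN-gamma programme, 2 passed 1.5-fold in the mutant, NLRC5 and IRF1, and 8 did in WT; the list medians were 0.14 and 1.53. IRF1 did not pass under loess or quantile scaling. IRF9, which forms part of the factor that binds ISREs, differed by 0.25, and CIITA, the MHC class II transactivator, by 0.21. The median of all genes was 0.00 in the mutant and -0.02 in WT.

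Of 29 antiviral genes, 1 passed in the mutant, IFIT2, and 19 passed in WT, with medians of 0.14 and 0.84. RSAD2, the antiviral enzyme viperin, differed by 0.51 in the mutant and 1.56 in WT. PARP9, an ADP-ribosylation factor, differed by 0.49 and 2.29, and IFIT3 by 0.36 and 2.34.

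Of 19 chemokine and effector genes, APOL3 alone passed in the mutant and 16 passed in WT, with medians of 0.15 and 1.301. CASP1, the inflammasome protease, was at 6.00 in the mutant with IFN-gamma and in the background range without it, at least 0.14 higher, and differed by 1.66 in WT. TNFSF10, the death ligand TRAIL, differed by 0.38 in the mutant and 2.22 in WT. On both mutant arrays 15 of the 19 genes exceeded background.

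On the probe set that stands for each gene, antigen presentation gave 0 calls in the mutant, although dimmer probe sets of HLA-DPA1 and HLA-DPB1 were called. In MHC class I presentation 0 of 19 genes passed in the mutant and 9 passed in WT, with medians of 0.03 and 0.38. ERAP2, a peptide-trimming aminopeptidase, and TAPBPL, a peptide editor, both differed by 0.38 in the mutant, against 1.58 and 1.04 in WT. In MHC class II, 0 of 10 passed in the mutant and 1 passed in WT, with medians of 0.02 and 0.12.

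Of 23 listed receptor, JAK and STAT genes and their targets, 20 were compared on a single-gene probe set. These 20 had 0 calls in the mutant and 2 in WT, with medians of 0.00 and 0.11. The counts do not cover the listed genes that were not compared. CISH differed by -0.16 and PIM1 by -0.12 in the mutant, and both are targets of STAT5 signalling. Among 26 immediate early genes 0 passed in the mutant, and FOSL1 was the farthest at 0.35. Among 14 genes of NF-kappaB and its feedback 0 passed, and TNFAIP3, the inhibitor A20, was the farthest at 0.33.

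Cell cycle (22 genes), housekeeping (10), glycolysis and hypoxia (15), cholesterol (8) and histone (6) lists had 0 calls in either direction in the mutant. Their medians ran from -0.02 to 0.06. ACTB, the gene for beta-actin, differed by 0.19. On the probe set that stands for each gene, markers of other blood cells, in 7 lists, also gave 0 calls. List medians in the mutant ran from -0.15 for the erythroid list (2 genes) to 0.24 for the granulocyte list (2 genes). Other probe sets of marker genes were called: PRF1 at -0.70, VSIG4 at 0.63 and CD79A at 0.64, the last in the background range. The granulocyte genes PRTN3 and MPO differed by 0.35 and 0.14, and the megakaryocyte (4 genes) and NK cell (6 genes) lists had medians of -0.14 and -0.13.

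**Figure D3:**
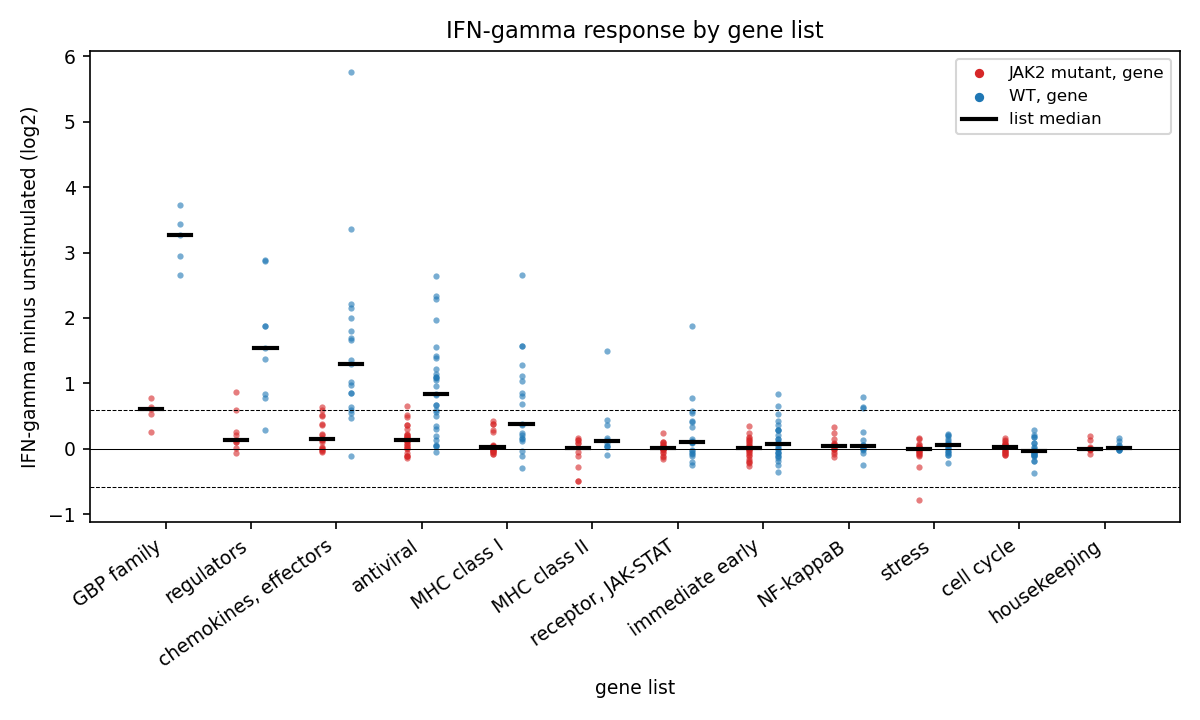
Log2 difference between IFN-gamma and unstimulated cells for the compared genes of 12 lists, in the JAK2 mutant (red, left of each pair) and in WT (blue, right), with list medians as black bars and 1.5-fold as dashed lines. The mutant medians of the GBP, regulator, chemokine and antiviral lists are 0.60, 0.14, 0.15 and 0.14, against 3.27, 1.53, 1.301 and 0.84 in WT.

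None of the 60 lowered probe sets was lowered or raised 1.5-fold in WT. WT lowered 0.115% and raised 1.43% of all compared probe sets, so few overlaps were to be expected among 60. The median of the 60 in WT was -0.04, against -0.02 over all compared probe sets, and 23 of them were above 0. They were 53 single-gene probe sets of 51 genes, 4 shared by several genes and 3 unnamed. Their levels were low, with a median of 5.54 in the mutant with IFN-gamma and 6.22 in the unstimulated mutant, against 8.01 and 7.96 over all compared probe sets. On both mutant arrays 14 lay in the background range, and 24 crossed it. Of the 60, 28.3% carried the suffix that marks cross-hybridising probes, against 19.0% of all compared probe sets.

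The largest fall was on a dim probe set of CMPK2, a mitochondrial nucleotide kinase that is itself interferon-stimulated. It read 5.16 in the mutant with IFN-gamma and 6.19 without it, at least 0.43 lower after allowing for background, against 5.82 and 6.20 in WT. The brighter CMPK2 probe set went the other way, with 9.03 and 8.78 in the mutant and 10.44 and 9.34 in WT. CMPK2 was thus lowered on its dim probe set and not on its bright one.

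Several of the larger falls were not shared by the gene's other probe sets. SPP1, the secreted phosphoprotein osteopontin, read 4.18 and 5.18 in the mutant, both background, and its 5 other probe sets ran from 0.08 to 0.55. UCHL1, a deubiquitinating enzyme, read 4.96 and 5.84 on a pair of probe sets with the same values, in the background range, and its other probe sets differed by 0.28 and 0.36. YME1L1, a mitochondrial protease, read 6.65 and 7.47 on the lowered probe set, a difference of -0.82, and differed by -0.06 on its brightest, at 11.69 and 11.75. AP1B1, a subunit of a clathrin adaptor, was at least 0.75 lower on one probe set and differed by -0.10 on a far brighter one.

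HLA-DPB1, an MHC class II chain, was lowered on 2 of its 7 compared probe sets. One read 5.63 with IFN-gamma and 6.55 without it in the mutant, at least 0.80 lower. The other read 5.21 and 5.85, in the background range, and its call was lost under quantile scaling. The remaining 5 ran from -0.50 to 0.41, with -0.11 on the one brightest in the mutant and -0.50 on the one brightest over all arrays.

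Falls above background were fewer. ROBO3, an axon guidance receptor, read 6.64 with IFN-gamma and 7.47 without it in the mutant, against 7.89 and 8.02 in WT, a difference of -0.83 in the mutant, and its other compared probe sets differed by -0.42 and -0.30. MLXIPL, a glucose-responsive transcription factor, read 7.23 and 7.92 in the mutant against 7.57 and 7.59 in WT, a difference of -0.69, with -0.36 to -0.12 on its other probe sets. For these genes every compared probe set was below 0.

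HSPA6, an inducible chaperone, was the 1 lowered gene among 19 stress genes. It read 6.23 with IFN-gamma and 7.02 without it in the mutant, against 5.86 and 5.85 in WT, so the mutant arrays both lay above the WT arrays. The difference was -0.79 in the mutant, and the list median was 0.00.

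Also above background were PCNX3, at 6.28 and 7.07, DDX11, a helicase, at 5.91 and 6.68, AQP7, a glycerol channel, at 6.37 and 7.10, AZIN2 at 5.79 and 6.52, and PRF1, which encodes perforin, at 5.96 and 6.66 on one probe set. The other PRF1 probe set differed by 0.26 and the other DDX11 one by -0.10. Those of AQP7 ran from -0.38 to 0.02 and those of AZIN2 from -0.39 to 0.17. The DNA glycosylase NEIL1 was at least 0.23 lower, the chaperone DNAJB2 0.31, the enzyme OPLAH 0.17, ZNF202 0.40 and PHACTR1 0.55, each reaching background with IFN-gamma. Further probe sets ran from -0.56 to 0.16 for DNAJB2 and from -0.06 to 0.04 for ZNF202, and that of PHACTR1 differed by 0.01. At the edge of the threshold SNORD8 was inside at -0.587 and PARD3 outside at -0.584.

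HLA-DPB1 and UCHL1 were the 2 lowered genes with 2 probe sets called. Over all lowered genes, 34 of 51 had further compared probe sets that were not called themselves. These 94 had a median of -0.05, with 39 above 0, and leave out the lowered probe sets by definition. The 1 lowered probe set with an unstimulated mutant level of at least 8 belonged to MKNK2, a kinase named after its value was seen, at 7.41 and 8.01. In the TNFRSF1A mutant with TNF-alpha, 46 of the 60 lowered probe sets were above 0. Their median there was 0.11, against -0.03 over all compared probe sets.

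Calls in both directions were concentrated at low signal. Below a mean mutant level of 6, 24 of 2122 probe sets were raised and 33 lowered. From 6 to 7 the counts were 16 and 20 of 6097, and from 7 to 8 they were 6 and 7 of 5312. At 8 and above, 6 of 13345 were raised and 0 were lowered. The SD of the mutant's differences over probe sets was 0.25, 0.20, 0.16 and 0.10 in these bands.

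Requiring signal above background on both mutant arrays left 25 raised and 22 lowered probe sets. Of the 25, 10 were raised 1.5-fold in WT. Averaging all probe sets of a gene left 7 raised and 12 lowered genes. Of the 7, GBP2, GBP3 and GBP5 were raised in WT, and all 3 averages include levels in the background range. IRF1, NLRC5, IFIT2 and APOBEC3G averaged 0.45, 0.55, 0.41 and 0.43, short of 1.5-fold, and APOL3 was not among the 7 either. These averages also take in probe sets that never reached a level of 6. That affected IRF1, whose 3 compared probe sets rose by 0.59, 0.76 and 0.51.

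**Figure D4:**
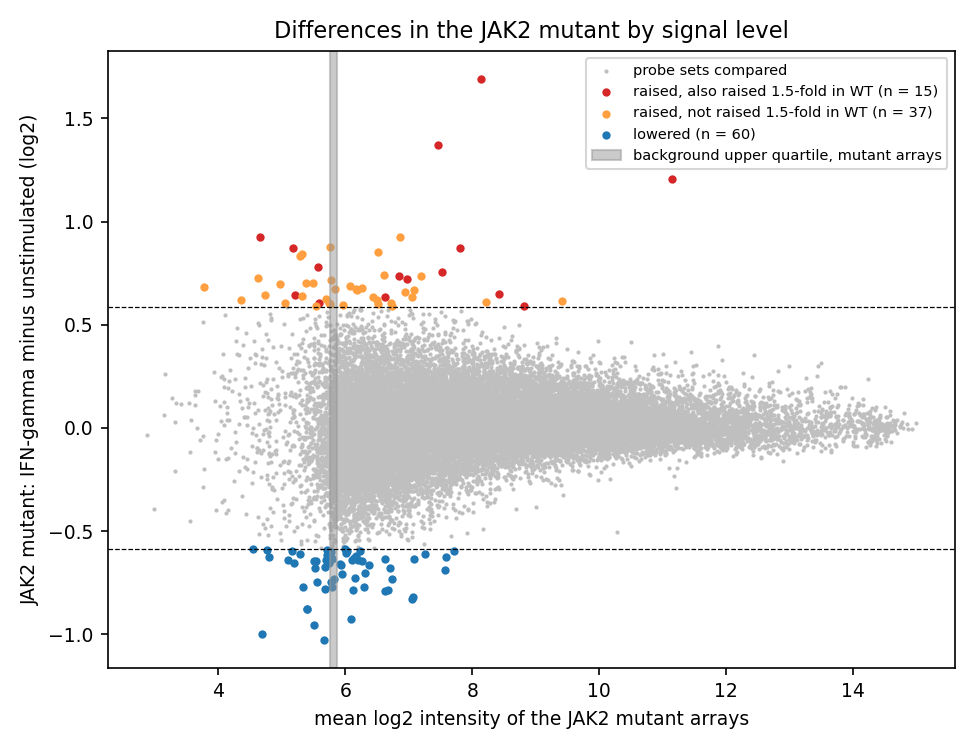
Log2 difference in the JAK2 mutant (vertical) against the mean log2 intensity of the mutant arrays (horizontal) for all compared probe sets; red points are raised in the mutant and in WT (15), orange points are raised in the mutant and not in WT (37), blue points are lowered (60), and the grey bar is the background upper quartile of the mutant arrays. Lowered points stop below a mean level of 8, whereas red points reach the bright end.

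Upstream sequence was described for the same gene groups. An ISRE was searched as GAAANNGAAA or its reverse complement TTTCNNTTTC, and the GAS motif as above, in the 250 bases before each start. Of 27305 genes in the promoter table, 8.09% held a GAS and 3.71% an ISRE. Of the 70 genes raised 2-fold in WT, 52 were in the table, and 14 of them (26.9%) held a GAS and 21 (40.4%) an ISRE.

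In the mutant, 34 of the 45 genes with a raised probe set were in the table, of which 6 held a GAS and 3 an ISRE. Most of the 34 were not raised 1.5-fold in WT: 31 genes, with 4 holding a GAS and 3 an ISRE. Of the 9 genes also raised in WT, 3 were in the table, and 2 held a GAS and 0 an ISRE. Of the 51 lowered genes, 40 were in the table, of which 0 held a GAS and 2 an ISRE. Among the WT-raised genes the mutant's median difference was 0.19 with a GAS, 0.22 with an ISRE and 0.15 with neither (14, 21 and 22 genes, of which 5 held both motifs).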

How the data were processed

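RNA of KBM7 cells was measured on 8 one-colour Affymetrix PrimeView arrays, and groups were taken from the labels. The authors deposited 1 normalized intensity per probe set on a linear scale; this scale was inferred from the values, and, per the submitters' processing notes, RMA and Affymetrix Expression Console 1.1 were used. RMA equalises the arrays' distributions, so a shift of most genes would not be seen. Log2 of the deposited intensity was taken without a pseudocount (numpy 2.4.6, pandas 2.3.3). Probe sets were named from the platform annotation, with symbols updated against RefSeq.

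Differences were counted past 1.5-fold, without a test, because groups had 1 array each. Each gene was represented by the brightest, on average over all arrays, of the probe sets that belong to it alone. The counting code was run on simulated data with planted shifts, which checks the code and not the calls made here. Alternatives were 2-fold and 1.3-fold thresholds, no level filter, a level of 8, signal above background, loess (span 0.3), quantile normalization, no _x_at probe sets, the mean of probe sets and the other WT control.

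Named genes were JAK2, IRF1, NLRC5, GBP3, IFIT2, the 20 largest single-gene rises and falls in the mutant, the 12 largest WT rises and the leading members of each list. Members, lists and rules were chosen with earlier results of these data known. Unnamed probe sets past 2-fold are described by level, not by identifier. Some genes are not reported here.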

Additional observations from a re-analysis of the deposited data

Results flagged for a closer look

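Control probe sets of the array were kept out of the comparisons, and some of them changed. Of the 62 control probe sets at a log2 level of 6 or more, 3 were raised at least 1.5-fold by IFN-gamma in the JAK2 mutant, by 1.16 to 1.33 on the log2 scale, and 0 were lowered. The same 3 were raised by 3.60 to 3.97 in WT cells, where 4 control probe sets passed in all. In the TNFRSF1A mutant with TNF-alpha 0 passed. These probe sets were noted because they carry a signal outside the data compared.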

How the results depend on the processing

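Named probe sets were recomputed under loess and quantile scaling: of 90 values 87 kept their direction and side of the 1.5-fold threshold, 3 kept only the direction (the brightest IRF1 probe set, 0.56 and 0.55, and an HLA-DPB1 one, -0.58 under quantile scaling) and 0 reversed. Counts are given as raised probe sets, lowered probe sets, raised probe sets of several or no genes, raised genes and lowered genes, against 52, 60, 5, 19 and 25. A 2-fold threshold gave 3, 1, 3, 0 and 0, and 1.3-fold gave 414, 414, 27, 112 and 189. Without a level filter the probe set counts were 101, 173 and 8, with 65 lowered genes. A level of 8 gave 23 and 9 probe sets and 12 and 3 genes. Signal above background gave 25 and 22 probe sets and 9 and 9 genes. Loess gave 84, 38 and 8 probe sets and 15 lowered genes, and quantile gave 70 and 40 probe sets and 15 lowered genes. The mean of probe sets gave 7 and 12 genes. The median mutant difference of WT-raised genes, 0.22, was 0.11 at 1.3-fold, 0.23 at a level of 8, 0.20 under loess and quantile scaling, and 0.21 without _x_at probe sets and with the mean of probe sets. The median WT difference of genes raised in the mutant, 0.26, was 0.075 at 1.3-fold, 0.14 without a filter, 1.97 at a level of 8, 0.90 above background, 0.21 under loess, 0.22 under quantile scaling and -0.069 with the mean of probe sets. That of lowered genes, -0.04, was -0.060 at 1.3-fold, -0.067 without a filter, -0.0043 at a level of 8 and -0.062 with the mean of probe sets. Without WT unstimulated replicate 1 (replicate 2 as control) these 3 medians were 0.10, 0.35 and -0.087. The cause of these movements was not tested. No paired analysis was possible because each mutant condition has 1 array. Dim signal limits most of the mutant's calls: 25 of 52 raised and 22 of 60 lowered probe sets exceeded background with and without IFN-gamma.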
